A study of Homo sapiens with 7 samples.

Results

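The 49 autosomal cadherin and protocadherin genes were described by when they replicate in S phase. Members were the genes named CDH followed by a number or beginning with PCDH in the deposited probe tables. They were 49 of 26913 autosomal gene names, and 719 of 161223 autosomal probes on the larger array. Of the 49 genes, 33 are single genes and 16 carry names of the clustered protocadherins on chromosome 5 (PCDHA1, 14 PCDHB genes and PCDHGA1). CDH15 and PCDHB1 had no probe on the smaller array and were compared on 6 arrays.

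Cadherins are transmembrane proteins that bind calcium and hold neighbouring cells together, and classical cadherins are tied to actin through catenins. Protocadherins form the largest branch of the family and act mainly in nervous tissue, where the clustered ones give neurons distinct surface identities through a choice of promoters. Replication timing is the order in which chromosome segments are copied in S phase. Gene-rich, open chromatin is usually copied early and gene-poor chromatin near the nuclear lamina late, in domains that often reach far beyond a single gene.

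The arrays held K562, a chronic myeloid leukaemia line that grows in suspension, and U2OS, an adherent osteosarcoma line. In every group, cells took up 50 µM BrdU for 2 h, and 80000 cells were sorted by DNA content into early and late S phase. BrdU-containing DNA was recovered with an antibody and amplified, then labelled with Cy3 (early) or Cy5 (late), with no dye swap. The 3 K562 arrays were a new cell sorting method, an old one (both labelled 180k) and an array labelled 44k, with 1 array each. The 4 U2OS arrays were 2 manual and 2 automated. No genotype, drug or other treatment is given for any group, and the labels do not say whether arrays of a line came from separate cultures. The p-values therefore measure the spread between these arrays, which may be technical. Both manual U2OS arrays shared a slide, each other array had its own, and no slide held both lines, so slide and cell line cannot be told apart. As a check of the labels, the total signal of CDKN2A, which is deleted in K562, was lower on the 3 K562 arrays (-2.85 to -1.27, log2 against the median probe) than on the U2OS arrays (-1.08 to -0.69).

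Timing is given as log2(early/late) from the processed signals, with the median autosomal probe of each array set to 0, so that positive values are early and negative values late. A gene's value is the mean of its probes. The arrays differed in brightness. On the old-sorting array 28.2% of member probes were well above background in the early channel, against 52.9% to 86.5% on the other 6. On the array labelled 44k 7.83% were in the late channel, and 41.3% of its late signals there were surrogate values set by the scanner software, so its ratios are the least precise.

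Example probes for the timing patterns described here are shown as the array carries them, 5′ to 3′ as deposited, with CpG dinucleotides in capitals. Each is the probe nearest the middle of its gene that both array designs share. The first 3 sample the 3 parts of the clustered locus, and the others an early gene, a late gene and a gene called between the lines in all 19 alternatives.
PCDHA1 (hg19 chr5:140309022-140309081): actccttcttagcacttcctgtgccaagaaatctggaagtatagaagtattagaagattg
PCDHB12 (hg19 chr5:140591143-140591202): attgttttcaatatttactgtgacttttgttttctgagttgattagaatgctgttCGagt
PCDHGA1 (hg19 chr5:140788893-140788952): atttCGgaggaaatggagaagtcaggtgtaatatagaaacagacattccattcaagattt
CDH1 (hg19 chr16:68789539-68789598): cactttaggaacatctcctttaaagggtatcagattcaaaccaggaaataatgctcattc
CDH12 (hg19 chr5:22246012-22246071): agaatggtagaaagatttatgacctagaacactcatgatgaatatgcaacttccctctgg
CDH26 (hg19 chr20:58577888-58577947): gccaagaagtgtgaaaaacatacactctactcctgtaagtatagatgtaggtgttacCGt
The CDH1 probe alone read 1.65 ± 0.11 (SD, n = 3) in K562 and 1.58 ± 0.11 (n = 4) in U2OS. The CDH12 probe read -2.77 ± 0.17 in U2OS, whereas in K562 it read -2.82, 1.11 and -2.50 on the new-sorting, old-sorting and 44k arrays. The old-sorting value lay on the early side for a probe that was late on the other 6 arrays. The CDH26 probe read -2.39 ± 0.76 in K562 and -0.40 ± 0.64 in U2OS. A single probe can depart from its gene. The CDH23 probe picked by the same rule, not printed, read -0.42 ± 0.70 in K562 and 0.74 ± 0.85 in U2OS, although the gene mean was early. The PCDH9 probe read 2.41 on the old-sorting array, where the gene mean was late. Whether a probe lies in an exon or an intron was not assigned, because no hg19 annotation was used here.

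Single cadherin and protocadherin genes were mostly late in both lines. The mean was below 0 for 22 of 33 (66.7%, with CDH24 a bound) in K562 and for 20 of 33 (60.6%) in U2OS, against 32.3% and 30.0% of the 23732 autosomal genes fitted. The same 20 genes were late in both lines and 11 were early in both. The median over the single genes was -1.39 in K562 and -1.41 in U2OS, against 0.63 and 0.77 over all genes. On every array, 16 single genes were below 0 and 8 were above 0. Long genes are more often late, and the late members are mostly long: with 8 or more probes, 16 of 19 single members were below 0 in K562 and 15 of 19 in U2OS, against 44.9% and 45.2% of 3839 genes with as many probes. Under 8 probes, the counts were 6 of 14 and 5 of 14, against 29.9% and 27.1%.

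**Figure D1:**
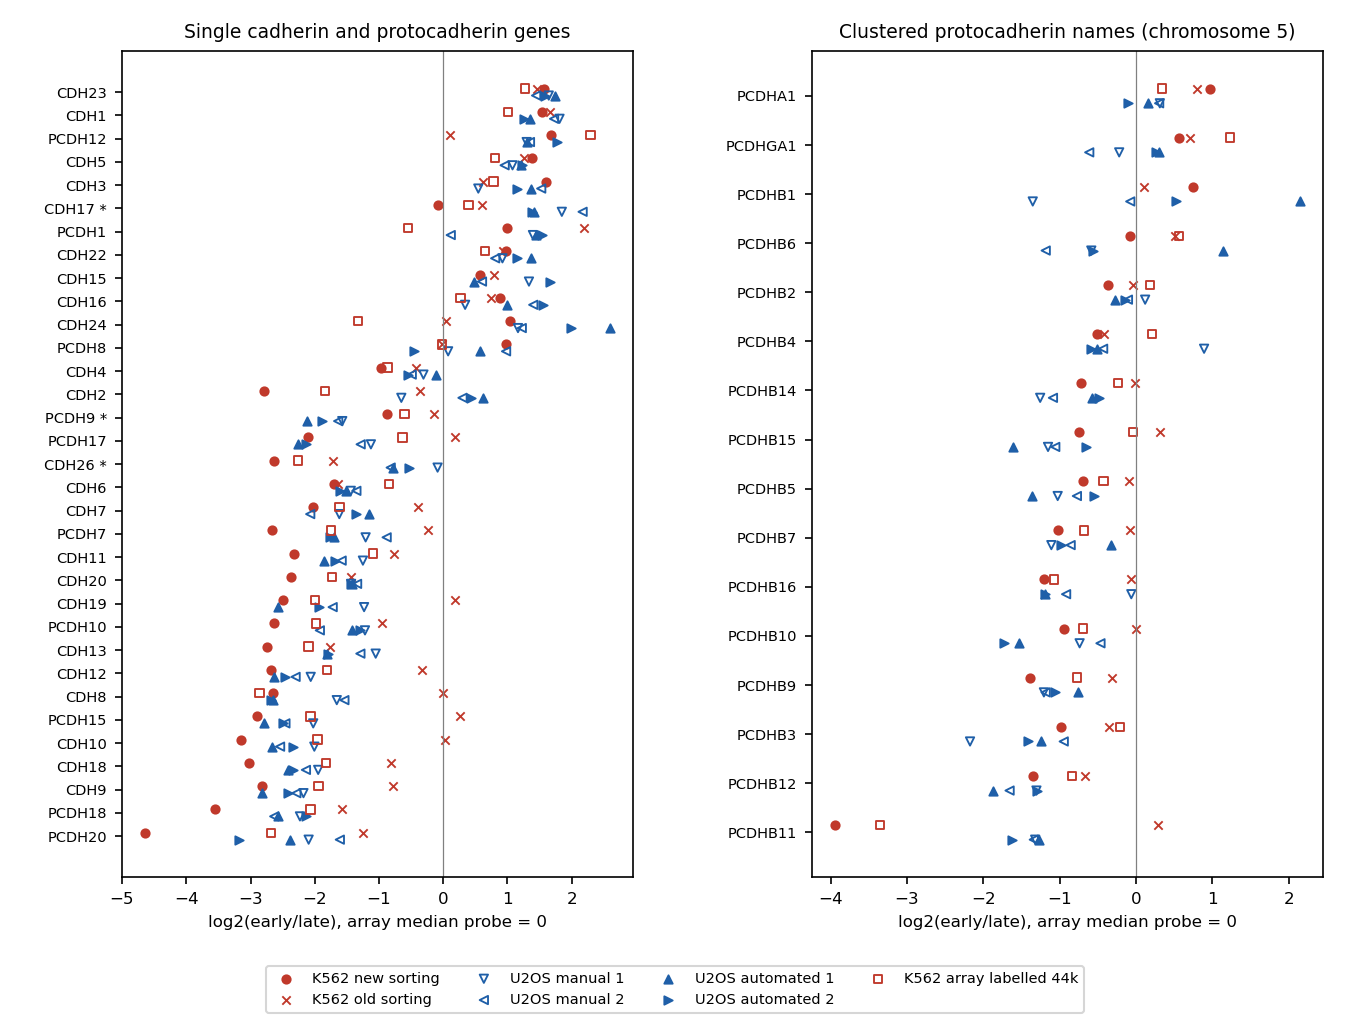
log2(early/late) of each member on each of the 7 arrays (red K562, blue U2OS), single genes on the left and clustered protocadherin names on the right, ordered by the mean of the cell line means; stars mark genes called between the lines. Single genes split into an early and a late set, and the old-sorting K562 crosses lie near 0 for many late genes.

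CDH1, CDH5, CDH3 and CDH16, which lie within a stretch of chromosome 16, were early in both lines. CDH1, the E-cadherin of epithelial junctions (hg19 chr16:68777908-68867715, 8 probes), read 1.54, 1.66 and 1.01 on the new-sorting, old-sorting and 44k K562 arrays and 1.81, 1.72, 1.36 and 1.26 on the U2OS arrays (manual 1 and 2, then automated 1 and 2, the order used throughout). All 7 values were early and the lines overlapped. CDH5, the cadherin of endothelial junctions, read 1.38, 1.26 and 0.80 in K562 and 1.08, 0.95, 1.20 and 1.23 in U2OS. CDH3, the P-cadherin beside CDH1, had means of 0.999 ± 0.53 in K562 and 1.14 ± 0.43 in U2OS. With CDH16, a cadherin of kidney epithelium, the 4 genes span 2.46 Mb, over which they read between 0.34 and 1.81 on the U2OS arrays and between 0.27 and 1.66 on the K562 arrays. CDH11, a type II cadherin of mesenchyme and bone that lies 1268 kb from CDH5, was late, at -1.39 ± 0.82 in K562 and -1.60 ± 0.26 in U2OS. The change from late to early timing between these neighbours was present in both lines.

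The type II cadherins CDH18, CDH12, CDH10 and CDH9 lie in a row over 7.56 Mb of chromosome 5 and were late together. Across these 4 genes the U2OS values lay between -2.82 and -1.95, and the new-sorting and 44k K562 values between -3.15 and -1.81. On the old-sorting array the same genes read between -0.82 and 0.02. CDH7 and CDH19, neighbours on chromosome 18, were late in the same way, with U2OS values of -2.58 to -1.15 and old-sorting values of -0.39 and 0.18. CDH9 had means of -1.85 ± 1.02 in K562 and -2.42 ± 0.28 in U2OS, and CDH18 of -1.89 ± 1.11 and -2.21 ± 0.21. CDH22, a type II cadherin of brain on chromosome 20, was early on all 7 arrays, with means of 0.85 ± 0.18 and 1.06 ± 0.25.

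Among the non-clustered protocadherins, PCDH12 and PCDH1 were early, and most others late. PCDH12, a protocadherin of endothelium, had a single probe that read 1.67, 0.11 and 2.29 in K562 and 1.30, 1.35, 1.31 and 1.77 in U2OS. CDH23, an atypical cadherin of the tip links of inner ear hair cells, was the earliest single gene by the mean of the line means, at 1.44 ± 0.15 in K562 and 1.60 ± 0.12 in U2OS, where CDH17 and CDH24 had higher means. Its tip-link partner PCDH15, on the same chromosome, was late in U2OS (-2.02, -2.46, -2.78 and -2.49) and read -2.90, 0.26 and -2.07 in K562. CDH23 was early on all 7 arrays, and PCDH15 was below -2 on all but the old-sorting array. By the mean of the line means PCDH20 and PCDH18 were the latest single genes, at -2.86 ± 1.71 and -2.39 ± 1.03 in K562 and -2.32 ± 0.66 and -2.39 ± 0.25 in U2OS. The single PCDH20 probe was not well above background in the early channel on any array. Its late channel was so on 2 of 3 K562 and 2 of 4 U2OS arrays. The PCDH20 ratio is only a bound on those arrays and no level on the rest, so its rank is not that of a measured value. In U2OS, PCDH15 and CDH9 had lower means than both. PCDH10 likewise has at most a bound in U2OS. Its early channel was not well above background there, and its late channel was in 6 of 12 probe readings.

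The late members that read nearest to 0 on the old-sorting array were dim on the K562 arrays. Of the 18 single members below -2 on the new-sorting array, 9 read above -0.5 on the old-sorting array, among them PCDH15 (0.26), CDH19 (0.18), PCDH17 (0.18), CDH10 (0.02) and CDH8 (-0.01). The median total signal of these 9 genes on that array was -1.46 (log2 against the median probe), and that of the other 9 was -0.31. The same 9 genes, split by their old-sorting value, were also dimmer on the new-sorting array (-1.10 against -0.31). On the 44k array the medians were -0.90 and -0.30. On the new-sorting and 44k arrays the 9 genes read late. Their medians were lower on the U2OS arrays too, by less, at -0.40, -0.16, -0.46 and -0.45 against -0.15, -0.10, -0.21 and -0.28. Across the 18 genes the old-sorting value and the total signal had r = -0.83 and rho = -0.78, a description over genes that share an array. Ratio and total signal come from the same early and late signals and are not independent. In late genes a low late signal lowers the total and raises the ratio. The 9 genes were also split by that ratio. On the 44k array the corresponding r was 0.35. The part of brightness in these values was not tested. Without the old-sorting array, 24 of 32 single genes were later in K562 than in U2OS, and with it 19 of 33. Over all genes the median difference with all arrays was -0.16, so most genes were later in K562 too. These counts have no share of all genes beside them and are not a result about the members.

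**Figure D2:**
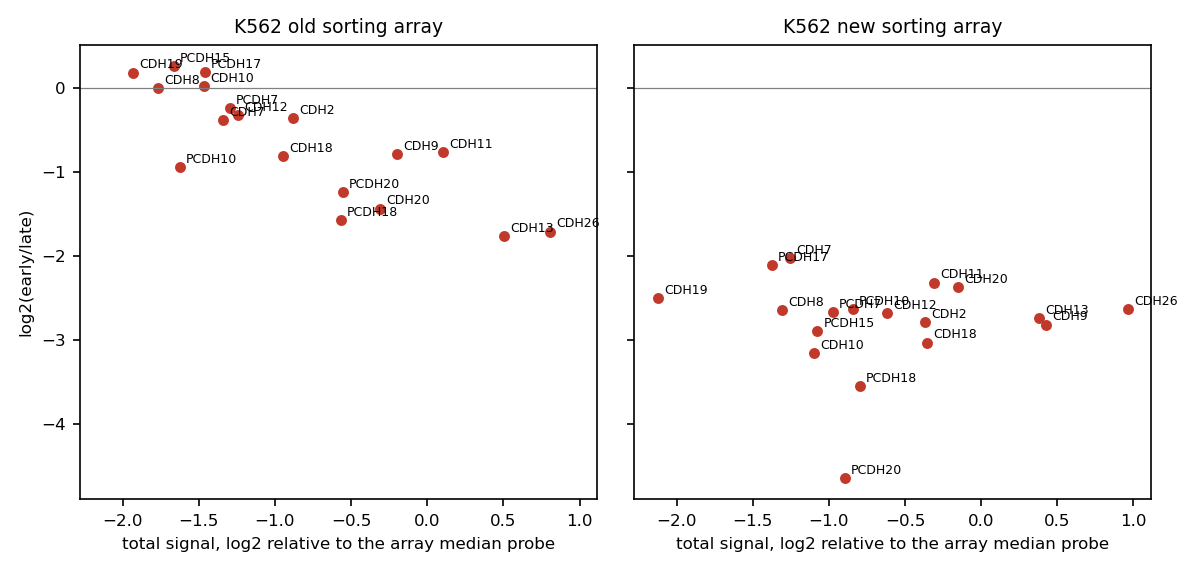
log2(early/late) against total signal (log2 relative to the median probe of the array) for the 18 single members below -2 on the new-sorting K562 array, on the old-sorting array (left) and the new-sorting array (right). Most of the dimmest genes read near 0 on the old-sorting array, but PCDH10, also dim, read -0.95. All 18 read below -2 on the new-sorting array, where the genes were chosen for it.

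To ask which members are copied at another time in K562 than in U2OS, gene means were compared with limma over all genes. At an adjusted p under 0.05, 13.1% of the 23732 genes were called, 5.91% earlier and 7.18% later in K562. The earlier genes were 45.1% of the calls, a share that was 34.8% after normexp background correction and 33.7% with none. Of the 49 members 3 were called (6.12%), a smaller share than among all genes. PCDH9 was earlier in K562, and CDH26 and CDH17 were later. The median difference of all genes was -0.16, that of the single genes -0.13 and that of the clustered genes 0.53.

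CDH26, a cadherin of epithelia (chr20:58536096-58577947, 5 probes), read -2.64, -1.71 and -2.26 in K562 and -0.09, -0.82, -0.78 and -0.53 in U2OS. The gene was late on all 7 arrays, and each K562 value lay below each U2OS value. The difference was -1.65 ± 0.34 (SE), with an adjusted p of 0.0115 by limma. Its surroundings within 500 kb differed too, at -2.01 in K562 and -0.86 in U2OS.

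CDH17, the cadherin of liver and intestine (chr8:95139402-95220757, 8 probes), read -0.08, 0.61 and 0.39 in K562 and 1.85, 2.17, 1.42 and 1.38 in U2OS. The U2OS arrays were all early, and the K562 arrays lay close to the median probe. The difference was -1.40 ± 0.33, with an adjusted p of 0.0212 by limma. Its flanks were at 0.85 in K562 and 1.19 in U2OS. Without background correction the difference was -0.61 (limma adjusted p 0.125) and with a loess fit of the dye curve -0.71 (0.0872), and without the new-sorting array the adjusted p was 0.0632.

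PCDH9, a protocadherin of neurons (chr13:66877420-67804261, 83 probes), read -0.88, -0.15 and -0.60 in K562 and -1.57, -1.64, -2.13 and -1.89 in U2OS. The gene was late on all 7 arrays and less so on the K562 arrays, with no overlap. The difference was 1.26 ± 0.31, with an adjusted p of 0.0254 by limma. The call was lost in 9 of 19 alternatives, with normexp at 0.46 (limma adjusted p 0.461) and without the old-sorting array at 1.07 (0.0633), the 44k array (0.0508) or either automated U2OS array (0.0811 and 0.0801).

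CDH2, the N-cadherin of nerve, muscle and mesenchyme, was not called, but had the largest difference among members with more than 1 probe. It read -2.79, -0.36 and -1.85 in K562 and -0.65, 0.30, 0.62 and 0.43 in U2OS. The old-sorting value lay within the U2OS range and the other K562 values lay below it. The difference was -1.84 ± 0.55, with an adjusted p of 0.0587 by limma. Over 19 alternatives it lay between -2.49 and -0.81 and was called in 4, with limma adjusted p from 0.00759 to 0.158. The lowest p came without the old-sorting array (-2.49). Without the new-sorting array the difference was -1.28. CDH24, a type II cadherin with a single probe, read 1.04, 0.04 and -1.33 in K562 and 1.16, 1.22, 2.59 and 1.98 in U2OS, with a limma adjusted p of 0.0665. Its late channel was not well above background on any K562 array, and its early channel was on 2 of 3. The K562 ratio of CDH24 is thus at most a bound and gives no direction between the lines.

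**Figure D3:**
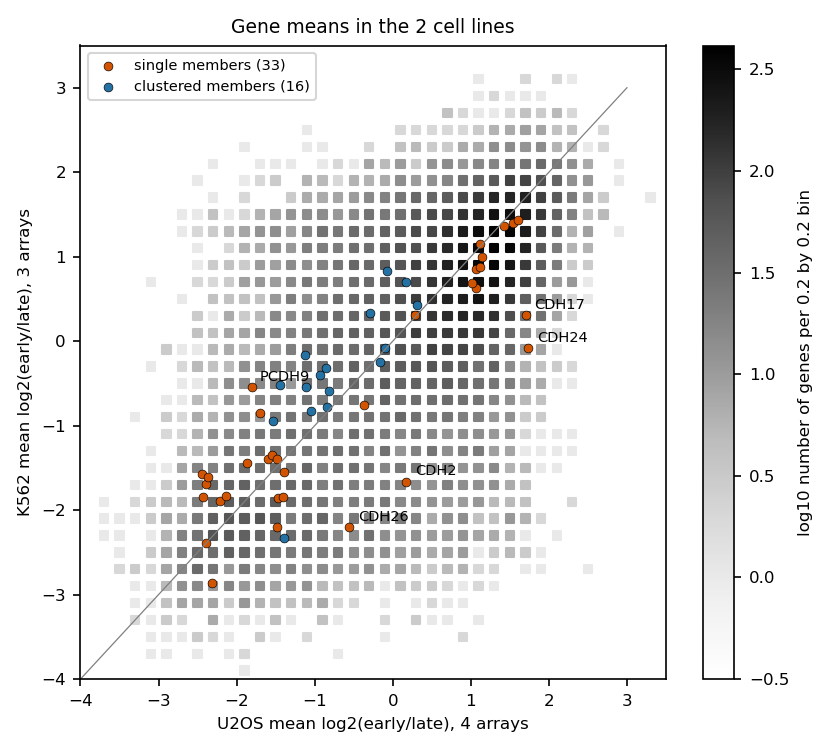
Mean log2(early/late) per gene in U2OS (4 arrays, x axis) and K562 (3 arrays, y axis), with all fitted genes as grey bins and members as coloured points; the line marks equal values. Single members gather at both ends of the diagonal, and CDH26, CDH17 and CDH2 lie below it, as does CDH24, whose K562 value is only a bound.

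The K562 and U2OS arrays did not overlap for 7 of 49 members, 3 earlier and 4 later in K562, against 28.4% of all genes (12.5% earlier and 15.9% later). Besides the called genes these were CDH20, later in K562, the clustered names PCDHA1 and PCDHGA1, earlier, and CDH24. Without CDH24, whose K562 value is a bound, 6 members remain, 3 of them later. The 44k values of PCDHA1 and PCDHGA1 are also at most bounds, with no probe well above background in the late channel there. Over the 33 single genes the means of the lines had r = 0.88 and rho = 0.76 as a description across genes.

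Several long members had a gradient of timing along their length. For members with 8 or more probes on the larger design, the probe span was cut into 3 equal stretches in the direction of rising coordinate, on the 2 K562 and 4 U2OS arrays of that design. The end minus start differences did not overlap between the lines for 8 of 21 such members. K562 lay above U2OS in CDH1, CDH4, CDH12, CDH17, PCDH7 and PCDH9, and below it in CDH10 and CDH23. The share among other genes with as many probes was not computed, so the count has no background to be set against. On the old-sorting array CDH10 read near 0 along its length (0.01 at the start and -0.18 at the end). PCDH9 in K562 read -2.05 in its start and 0.93 in its end stretch on the new-sorting array, and -1.18 and 0.98 on the old-sorting array. In U2OS the end minus start difference of PCDH9 was -0.22, 0.48, 1.08 and 0.70. The K562 differences, 2.98 and 2.16, lay above all U2OS values, and the end stretch was early in K562 (0.96 ± 0.04) and late in U2OS (-1.53 ± 0.13). The difference between the lines in the whole gene thus lay mostly in its higher-coordinate part.

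CDH4, the R-cadherin of retina and brain (chr20:59837622-60509369, 56 probes), was earlier at its end than at its start in both lines, by 3.65 and 2.60 on the K562 arrays and by 0.95, 1.44, 1.82 and 1.62 on the U2OS arrays. Its end stretch was early in both lines (1.01 ± 0.10 in K562 and 0.51 ± 0.26 in U2OS), and its start stretch was late. PCDH7, a protocadherin of brain and heart (35 probes), showed the reverse in U2OS, where the end minus start difference was -1.52, -1.38, -2.53 and -2.06. In K562 it was -0.14 and -0.22, and the new-sorting array was late over the whole gene (-2.55 at the start and -2.68 at the end). The old-sorting array read near 0 at both ends of the gene (0.0002 and -0.22). CDH13, the T-cadherin that is anchored by a lipid and lacks a cytoplasmic part, was late over most of its 1166 kb, and its end exceeded its start by 1.68 and 0.67 in K562 and by 0.80, 0.68, 0.85 and 0.53 in U2OS. Differences between the lines in these gradients were not tested.

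**Figure D4:**
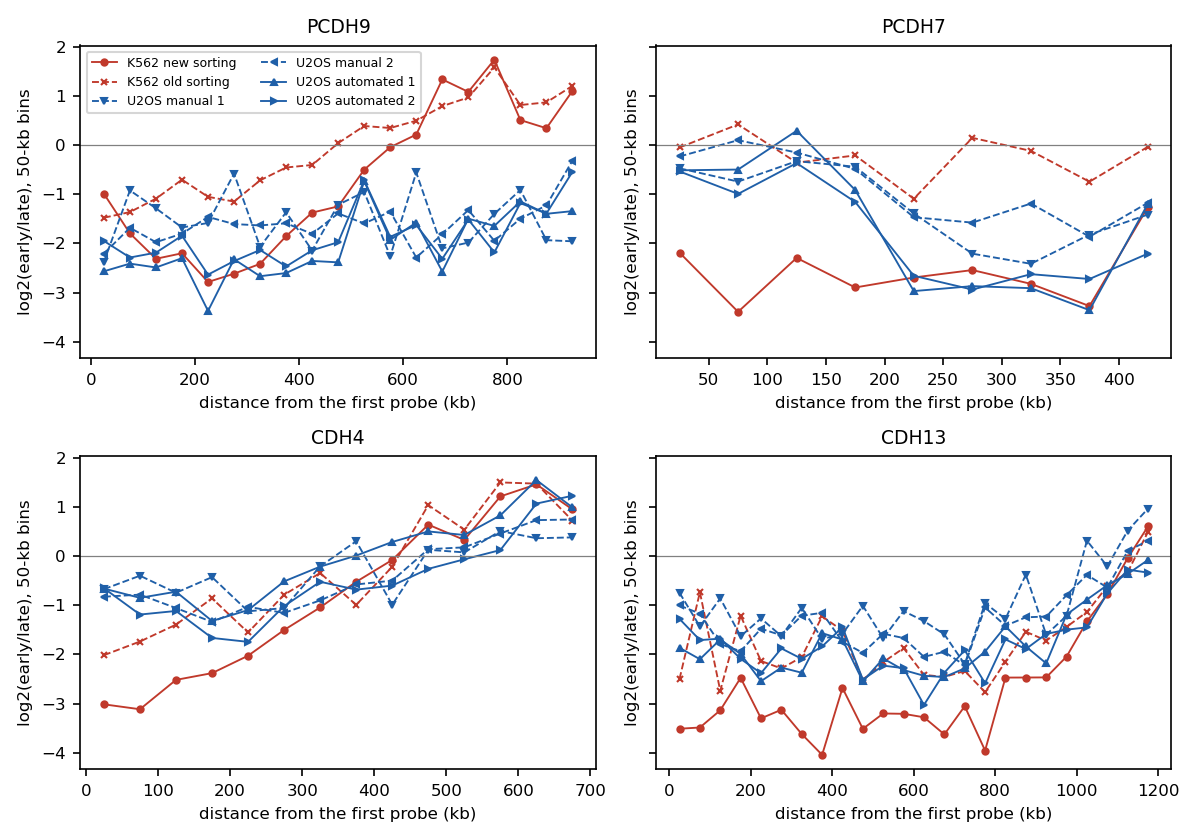
log2(early/late) in 50-kb bins against distance from the first probe (kb) in PCDH9, PCDH7, CDH4 and CDH13, with a line for each of the 6 arrays of the larger design (red K562, blue U2OS). PCDH9 is early at its end in K562 and late throughout in U2OS, PCDH7 is later towards its end than near its start in U2OS, and CDH4 and CDH13 are earlier at their ends in both lines.

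CDH11 had end minus start differences of -1.83 and -0.22 in K562 and of -1.41, -1.19, -1.11 and -0.90 in U2OS. CDH6, a type II cadherin of kidney and brain, had differences of 1.31 and 0.13 in K562 and of 0.79 to 1.22 in U2OS. PCDH15, over 980 kb, had end minus start differences between -0.08 and 0.40 on the 6 arrays, and CDH8, over 368 kb, between -0.23 and 0.63. CDH12 differed by 0.34 and 0.61 in K562 and by -0.37 to -0.10 in U2OS. CDH23 stayed early along 397 kb, with differences between -0.02 and 0.69.

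Members mostly had the timing of their surroundings. Across the 33 single genes, the gene mean and the mean of probes within 500 kb on either side had r = 0.90 in K562 and 0.94 in U2OS, and the line difference of a gene and that of its flanks had r = 0.79. The number of other named genes per Mb had r = 0.80 and 0.86 with the mean, but rho = 0.56 and 0.75. The GC content of the probes had r = 0.30 and 0.36, against 0.07 and 0.15 over all genes. These are descriptions across genes that share arrays, and neighbours share flanks. CDH13 stood furthest from its flanks, at -2.20 against 0.20 in K562 and -1.49 against 0.50 in U2OS.

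The clustered protocadherins formed a dip towards late timing in an early region. Their probes lie on chr5:140186691-140880962 (694 kb), where PCDHA1 (17 probes) and PCDHGA1 (15 probes) stand for the alpha and gamma clusters, since their probes span 205 kb and 166 kb. The block mean over all clustered probes was 0.24, 0.50 and -0.02 on the new-sorting, old-sorting and 44k arrays and -0.24, -0.37, -0.08 and -0.22 on the U2OS arrays. The mean was 0.24 ± 0.26 in K562 and -0.23 ± 0.12 in U2OS. All K562 values lay above all U2OS values, a difference of 0.47 with p = 0.0571 in a two-sided exact permutation test, the smallest p that 3 against 4 arrays allow. On the 44k array 0 of the 24 clustered probes were well above background in the late channel. Its values for this locus, here and below, are therefore at most bounds, although the means and permutation tests take them as levels. The difference was positive in all 18 alternatives, between 0.14 with normexp and 0.60 without the 44k array, but the median over the 16 clustered genes was -0.04 with normexp.

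Within the locus, the beta cluster had the latest values. The alpha cluster had means of 0.70 ± 0.32 in K562 and 0.17 ± 0.20 in U2OS, the beta cluster of -0.50 ± 0.45 and -0.83 ± 0.08, and the gamma cluster of 0.83 ± 0.35 and -0.07 ± 0.43. The two-sided exact permutation p was 0.0571 for alpha, 0.286 for beta and 0.0571 for gamma. On each array the beta mean lay below the mean of alpha and gamma, by -1.70, -0.78 and -1.32 in K562 and by -0.94, -0.72, -0.95 and -0.91 in U2OS. The 44k value (-1.32) rests on bounds. In K562, 11 of the 13 PCDHB genes with a level were below 0, and in U2OS 13 of 14. On every array that held them, 8 were below 0. The latest with a measured level was PCDHB12, at -0.95 ± 0.35 in K562 and -1.53 ± 0.28 in U2OS. In K562, PCDHB11 has no level, since neither channel of its probe was well above background on any of the 3 arrays. Without PCDHB11 the beta means were -0.36 ± 0.33 in K562 and -0.79 ± 0.08 in U2OS. The beta mean then lay below that of alpha and gamma by -1.13 ± 0.34 in K562 and -0.84 ± 0.11 in U2OS. The block difference between the lines was then 0.52. The other values, the permutation p-values and the dip below keep this probe. In U2OS the earliest clustered gene was PCDHB1 (0.31 ± 1.45), whose single probe ranged from -1.35 to 2.15, and in K562 it was PCDHGA1.

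The alpha cluster was later at the end that faces the beta cluster. From its start to its end stretch PCDHA1 changed by -1.24 and -0.95 in K562 and by -1.29, -1.29, -0.89 and -1.07 in U2OS, so that all 6 arrays had the same direction. The 5 probes that lie between the PCDHB probes under other names were also late in U2OS (-1.25 ± 0.23). In K562 they averaged -0.47 ± 0.73. They were late on the new-sorting array (-1.02) and early on the old-sorting array (0.37). The 44k value (-0.75, 3 probes) is at most a bound, since no late signal was well above background there. The 10 probes under other names elsewhere in the locus read 0.03 ± 0.33 in K562 and -0.78 ± 0.12 in U2OS. The best match between 2 PCDHB probes had 68.8% identity, so the beta values come from probes that differ in sequence. Whether a probe also matches the sequence of another PCDHB gene was not examined.

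The surroundings of the locus were early. Within 500 kb, the probes before it averaged 1.07 ± 0.38 in K562 and 1.27 ± 0.13 in U2OS, and those after it 1.08 ± 0.20 and 1.16 ± 0.14. The clustered probes lay below these flanks on all 7 arrays, by -1.06, -0.67 and -0.78 in K562 and by -1.56, -1.53, -1.28 and -1.40 in U2OS. The dip was deeper on each U2OS array than on any K562 array (-1.44 ± 0.13 against -0.84 ± 0.20). This measure was chosen after its values were seen, so its two-sided exact permutation p of 0.0571, the smallest possible, supports nothing further.

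**Figure D5:**
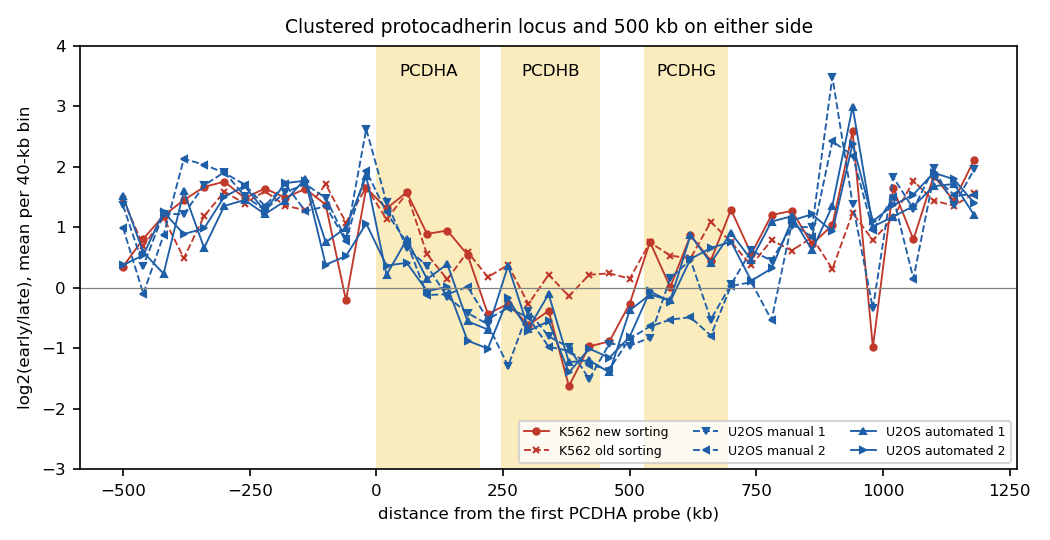
log2(early/late) in 40-kb bins across the clustered protocadherin locus and 500 kb on either side, against distance from the first PCDHA probe (kb), with a line for each of the 6 arrays of the larger design (red K562, blue U2OS) and shading over the 3 clusters. All arrays fall from early flanks into the PCDHB part and rise again through PCDHG, and the old-sorting K562 array falls least.

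Set against the single genes, the clustered genes were earlier at the median on 6 of 7 arrays. Of the 16 clustered names 14 are PCDHB genes, while alpha and gamma each enter as a single name. This median therefore describes mainly the beta cluster and not the whole locus. The median clustered minus the median single gene was 1.38, -0.01 and 1.24 in K562 and 0.06, 0.40, 0.75 and 0.73 in U2OS. The means were 0.87 ± 0.76 and 0.48 ± 0.33, and in U2OS the direction turned with normexp (-0.05) and with loess (-0.02). The difference between the lines was 0.39 (two-sided exact permutation p = 0.4).

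Among catenins, plakophilins, nectins and other cadherin superfamily genes, which bind or resemble the members, 41 of 48 listed names were fitted and 3 were called (7.32%, against 13.1% of all genes), 2 earlier and 1 later in K562. PKP4, a plakophilin of cell junctions, read -1.51, -1.20 and -1.0 in K562 and 0.67, 0.38, 0.53 and 0.70 in U2OS, a change of sign with a limma adjusted p of 0.00326. MLLT4, afadin, which ties nectins to actin, read 0.76, 0.49 and 1.12 in K562 and -1.13, -0.53, -1.36 and -1.27 in U2OS (limma adjusted p 0.00546). CTNNA2, the alpha-catenin of neurons, was late in both lines and differed by 1.42 ± 0.32 (limma adjusted p 0.0172), a call that was lost in 6 of 19 alternatives, with normexp at 0.52 (limma adjusted p 0.313) and without the 44k array at 1.20 (0.0504) or either automated U2OS array (0.0567 and 0.0621). MLLT4 lost its call without background correction (limma adjusted p 0.0582).

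Handling was compared within U2OS. Between the automated and manual arrays 0 of 49 members and 0 of 23754 genes (0%) were called by limma, while 5 members and 19.3% of all genes had an unadjusted p under 0.05. With other background steps the count of members called was 21 with normexp (35.6% of all genes), 19 with no correction (32.9%) and 18 with loess (34.1%). The called members with normexp were 16 later and 5 earlier on the automated arrays, where 98.2% and 98.9% of member probes were well above background in the late channel, against 66.9% and 51.2% on the manual arrays. The part of brightness was not tested. Handling and slide cannot be told apart.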

How the data were processed

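The authors deposited scanner output of Agilent Feature Extraction 11.5.1.1, per the file headers (the submitters' processing notes name version 9.1). The deposited intensity columns are raw and processed spot signals, the latter background-subtracted and dye-normalized by the scanner software per the file headers, and the deposited log10 ratio (late over early) served only as an alternative. Control and outlier spots were dropped, probes averaged by name, log2(early/late) computed from processed signals and centred on the median autosomal probe, with no loess, and probes averaged per gene. Positions and names are those of the files (hg19). Gene means were fitted with limma 3.58.1 (R 4.3.3), K562 against U2OS, with Benjamini-Hochberg adjustment over all genes. Only this limma step was tested on simulated gene values with known shifts. Locus blocks used exact permutation tests over arrays. Named were called members, the 4 earliest and 4 latest single members, clustered families, members with at least 8 probes, neighbours within 2 Mb and called junction genes; CDH2, CDH24 and other examples were chosen after their values were seen. Members and lists were chosen with earlier results of these data known. Replicate numbers did not pair the U2OS arrays (r = 0.02). The number of arrays limits the precision.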

Additional observations from a re-analysis of the deposited data

Results flagged for a closer look

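The members that differed between the cell lines by limma were CDH26 (-1.65), CDH17 (-1.40) and PCDH9 (1.26), and among the junction genes PKP4 (-1.81), MLLT4 (1.86) and CTNNA2 (1.42), each as K562 minus U2OS on the log2 scale. In 3 of 54 sets of 4 U2OS values, 1 array lay far from the others, and chance gives this in about 5% of sets. PCDHB4 read 0.89 on the manual 1 array and -0.59 to -0.43 on the other 3. PCDH1 read 0.12 on the manual 2 array and 1.40 to 1.54 on the others. PCDH12 read 1.77 on the automated 2 array and 1.30 to 1.35 on the others. PCDHB4 and PCDH12 rest on a single probe each, and PCDH1 on 3.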

How the results depend on the processing

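Genes called between the lines numbered 1239 without background correction and 1901 with probes on both designs, and 1625 (without the new-sorting array) to 2853 when each array was left out, with 2042 and 1944 without the first and second automated array. Members called were 1 without background correction and with loess, and 2 to 4 with an array left out. CDH26 kept its call in 19 of 19 alternatives (limma adjusted p 0.00815 to 0.0386), CDH17 in 14 (0.00692 to 0.125) and PCDH9 in 10 (0.00875 to 0.461). Members called between automated and manual U2OS were 21 with normexp, 19 without background correction and 18 with loess, and 0 with any array left out. With the replicate number as a block, alone or with equal scale, this count was 0. The clustered minus single median in U2OS was -0.048 with normexp, 0.0047 without background correction, -0.020 with loess and 1.22 with at least 2 probes per gene, where that in K562 was 1.86. With an array left out it was 0.61 to 1.31 in K562 and 0.40 to 0.63 in U2OS, and the clustered block difference was 0.34 to 0.60. The dip below the flanks kept its direction in all 15 alternatives, and was smallest without background correction (-0.41 in K562 and -0.69 in U2OS). Single genes late in both lines numbered 20 of 33 in these settings, and 21 of 32 with probes on both designs. The deposited log ratio, the alternatives for the dip and the values without PCDHB11 were added after seeing the data. Slide as a random block could not be fitted and was not run. Signal over background limits PCDHB11, PCDH20, CDH24, CDH15 and PCDH10. The causes of these shifts were not tested.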

Other observations

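The X-linked protocadherins PCDH11X and PCDH19, outside the autosomal rule, were late as well. PCDH11X (14 probes) read -2.47, 0.48 and -1.76 on the new-sorting, old-sorting and 44k K562 arrays and -1.65, -1.81, -2.29 and -1.92 on the U2OS arrays. PCDH19 (13 probes) read -2.17, -1.48 and -2.15 in K562 and -1.92, -1.46, -1.73 and -2.01 in U2OS. PCDH11X was thus another gene that was late on 6 arrays and near or above 0 on the old-sorting array.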
